A study of Mus musculus with 4 samples.

Results

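The genes described here are 32 mouse genes that act in the G2 phase and in mitosis, taken by symbol from a fixed list among the 31053 genes of the count tables. All 32 were found, and all 32 passed the filter on low counts in each comparison across genes below that used full counts. With thinned cells, 24 of 32 passed it between allogeneic and syngeneic Lgr5-positive cells. They were read in single cells of small-intestinal crypts, prepared on day 7 from mice that had been lethally irradiated and given a bone marrow graft. All recipients were C57BL/6 females of 8 to 12 weeks, with marrow from C57BL/6 donors (syngeneic, labelled as controls) or from BALB/c donors (allogeneic, labelled as having graft-versus-host disease, in which donor immune cells attack the host). Each group had 2 libraries, and each library was a pool of 3 to 4 mice, so n = 2 pools per group throughout. Every library carries a name that starts with KO, which the labels leave unexplained. Sets of 4 values below run from the syngeneic libraries, 1 and 2, to the allogeneic libraries, 1 and 2.

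A dividing cell copies its DNA in S phase, prepares for division in G2 and separates its chromosomes in mitosis. The kinase Cdk1, switched on by the cyclins A2, B1 and B2, drives the entry into mitosis, with help from the Polo and Aurora kinases. The spindle checkpoint holds the cell until every chromosome is attached, after which the anaphase-promoting complex (APC/C) marks cyclin B for destruction and the cell divides. Most of these genes are transcribed together late in the cell cycle, through promoter elements that include the cell cycle genes homology region (CHR), read by the DREAM and MuvB complexes, and CCAAT boxes, read by NF-Y. In the small intestine, division is confined to the crypts, where stem cells marked by the receptor Lgr5 and their transit-amplifying daughters divide, while enterocytes on the villi do not.

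The start windows of the members, from 250 bases before to 50 after the start in RefSeq (GRCm38.p6), were searched for the letters of these elements. Of the 32 members, 26 matched the table, with 27 windows because Bub3 has 2. The CHR was searched as TTTGAA and in the variant form TTCGAA. For the NF-Y element the letters were CCAAT. Both strands were read, and hits may overlap, as a CCAAT box on one strand does with one on the other in Ube2c. One of the CHR forms was in 22 of 27 member windows (81.5%), against 19.2% of all 32851 windows in the table. CCAAT in either direction was in 23 of 27 (85.2%), against 37.4% of all windows. Both kinds were in 21 of 27 (77.8%), against 7.53% of all windows. A pair of CCAAT boxes whose starts lie 31 to 34 bases apart, a spacing chosen after the hits were seen, was in 8 member windows (29.6%; Aurka, Ccnb1, Ccnb2, Cdca3, Cdca8, Cdk1, Hmmr and Ube2c), against 1.2% of all windows. Birc5, Nusap1 and Tacc3 had none of these letters in their windows. A match is a run of letters and not a measured binding site.

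The 250 bases before the start of 6 members are shown 5′ to 3′ along the gene's strand, with every hit in capitals. They were chosen for the values below: Cdk1 is the kinase at the centre of the group, Cdc20 and Ube2c work with the APC/C, Birc5 had the smallest and Top2a the greatest fold change between Lgr5-positive and Lgr5-zero cells, and Mki67 and Ube2c end the range of ratios within the allogeneic pair in Lgr5-zero cells. The windows are chr10:69352913-69353162 (minus strand) for Cdk1, chr4:118437344-118437593 (minus) for Cdc20, chr2:164769679-164769928 (plus) for Ube2c, chr11:117848987-117849236 (plus) for Birc5, chr7:135716380-135716629 (minus) for Mki67 and chr11:99024190-99024439 (minus) for Top2a.
Cdk1: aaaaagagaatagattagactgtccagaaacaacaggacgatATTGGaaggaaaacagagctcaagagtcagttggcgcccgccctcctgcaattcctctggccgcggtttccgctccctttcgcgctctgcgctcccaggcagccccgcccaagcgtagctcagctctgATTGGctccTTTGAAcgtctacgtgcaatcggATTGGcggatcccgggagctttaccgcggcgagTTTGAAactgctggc
Cdc20: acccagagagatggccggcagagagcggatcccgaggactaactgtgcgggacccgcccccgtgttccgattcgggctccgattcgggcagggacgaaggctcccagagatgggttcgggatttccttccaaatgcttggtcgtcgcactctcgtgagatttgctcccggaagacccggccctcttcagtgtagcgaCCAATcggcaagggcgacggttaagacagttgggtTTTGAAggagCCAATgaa
Ube2c: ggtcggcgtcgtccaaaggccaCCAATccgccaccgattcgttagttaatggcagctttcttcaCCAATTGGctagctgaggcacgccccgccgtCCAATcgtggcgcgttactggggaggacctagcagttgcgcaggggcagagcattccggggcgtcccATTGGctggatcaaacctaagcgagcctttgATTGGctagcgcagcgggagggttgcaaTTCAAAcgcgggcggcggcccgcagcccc
Birc5: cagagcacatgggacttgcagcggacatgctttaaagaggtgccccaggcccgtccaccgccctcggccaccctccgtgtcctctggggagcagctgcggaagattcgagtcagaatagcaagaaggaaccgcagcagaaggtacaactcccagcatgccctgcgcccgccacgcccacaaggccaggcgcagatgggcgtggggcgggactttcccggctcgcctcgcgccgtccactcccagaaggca
Mki67: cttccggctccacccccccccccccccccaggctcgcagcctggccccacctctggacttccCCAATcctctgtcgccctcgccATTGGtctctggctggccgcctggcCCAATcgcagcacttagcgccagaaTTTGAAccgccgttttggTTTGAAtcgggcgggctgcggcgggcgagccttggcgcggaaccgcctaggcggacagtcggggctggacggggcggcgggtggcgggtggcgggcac
Top2a: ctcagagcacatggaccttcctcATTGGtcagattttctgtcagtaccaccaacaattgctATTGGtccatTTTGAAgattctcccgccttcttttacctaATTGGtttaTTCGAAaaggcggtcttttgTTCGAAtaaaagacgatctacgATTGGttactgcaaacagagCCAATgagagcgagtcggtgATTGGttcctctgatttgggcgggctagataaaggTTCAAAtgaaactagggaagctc
In these stretches Top2a held 4 CHR-type runs and 6 CCAAT boxes, Ube2c held 1 and 6, and Mki67 held 2 and 3. The CHR-type run nearest the start began at base -15 in Cdk1, -18 in Cdc20, -23 in Top2a and -29 in Ube2c, and at -98 in Mki67, counting the base before the start as -1. Birc5 had none of the letters.

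Deposited totals were 14961466 to 26677842 UMIs (unique molecular identifiers, 1 per captured RNA molecule) per library. After filtering, 1810 to 4612 epithelial cells per library remained, with a median of 4063 to 5620 UMIs each. By their markers, stem-like, goblet-like, Paneth-like, enterocyte-like, tuft-like and enteroendocrine-like clusters were present in all 4 libraries, as the labelled tissue holds; T or NK-like cells (10, 33, 230 and 198) and myeloid-like cells (in the allogeneic libraries) were left out. Allogeneic 2 stood apart: cycling progenitor-like cells numbered 19, 24, 153 and 880, stem-like cells 710, 421, 326 and 111, and the summed level of the 10 stem markers in epithelial cells was 2203, 1720, 2062 and 541 CPM (the UMIs of a gene or list per 1000000 UMIs of the same cells). A cluster of 138 cells that matched no marker list came from allogeneic 2 alone. Its leading genes were Car1 and S100g, named after their values were seen. Whether the same stretch of intestine was sampled in each library was not tested. In allogeneic 1, 27.2% of barcodes exceeded the mitochondrial limit, against 11.2 to 14.9% elsewhere. Between 2 and 7 barcodes were shared by any pair of libraries.

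The members marked the same cells. Taking each gene against the other 31, between 82.6% (Bub3) and 98.8% (Nusap1) of its UMIs lay in epithelial cells with 6 or more UMIs of the others. Those cells were 4451 (for Top2a) to 4550 (for Kif2c) of the 11707 epithelial cells. Cells with 6 or more UMIs of all 32 were also deeper, with median UMIs of 6461 to 9209 against 3256 to 4010 in the rest. Part of each percentage thus comes from depth, and the share of all UMIs in those cells was not measured. Bub3, a checkpoint protein that also has roles outside mitosis, was the member least confined to those cells. A Bub3 UMI was found in 9.48% of the cells with no UMI of any other member, against 4.1% for the condensin subunit Smc4, 3.36% for Ube2c and 0.023% for the kinase Bub1. Such co-occurrence describes cells of 4 libraries, and the counting of low-abundance members depends on depth. The summed count had many cells at 0 (941, 944, 525 and 1985 of the epithelial cells) and a long upper tail, with medians of 26 to 34 UMIs in cells at 6 or more. Cells next to the limit were few: 44, 52, 31 and 79 cells had 5 UMIs and 39, 41, 32 and 58 had 6.

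At 6 or more summed UMIs, 39.6% (95% exact binomial interval 37.8 to 41.4), 36.6% (34.6 to 38.5), 48.8% (46.5 to 51.1) and 35.8% (34.4 to 37.2) of epithelial cells counted as high in G2 and mitosis transcripts. These intervals cover counting error only. Allogeneic 1 was the highest and allogeneic 2 the lowest, so the groups overlapped. Enterocyte-like cells, which do not divide, gave the background: 0.709%, 0.832%, 0% and 1.14%, at median depths of 3228 to 3752 UMIs. For the 0 of 366 cells in allogeneic 1, the 95% exact binomial interval reached 1.003%. In stem-like cells the share was 52.4%, 58.4%, 73.0% and 55.0%, in goblet-like cells 50.6%, 48.8%, 59.3% and 53.3%, and in cycling progenitor-like cells 84.2%, 62.5%, 92.2% and 86.7%. The members and the further mitosis genes below were left out of the genes that defined the clusters, while S-phase genes were not.

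A cell with at least 1 Lgr5 UMI was taken as Lgr5-positive, and one with none as Lgr5-zero. Lgr5-positive cells numbered 376, 247, 293 and 190 (13.1%, 10.2%, 16.2% and 4.12% of epithelial cells). They were deeper than Lgr5-zero cells, with median UMIs of 6910, 6947, 9136 and 9444 against 4343, 4115, 5245 and 3966. Of the T or NK-like cells, 1, 1, 0 and 1 held an Lgr5 UMI. A cell with no Lgr5 UMI may still hold Lgr5 RNA that was not captured.

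Lgr5-positive cells more often carried a high sum of the members than Lgr5-zero cells of the same library. The share was 62.0%, 62.3%, 70.6% and 90.0% in Lgr5-positive cells. In Lgr5-zero cells it was 36.2%, 33.6%, 44.6% and 33.5%. The difference within a library was 25.8, 28.7, 26.1 and 56.5 percentage points, positive in 4 of 4 libraries. With every cell thinned to 2000 UMIs and Lgr5 read from the thinned counts, it was 8.04, 10.0, 6.12 and 32.1 points, again in 4 of 4, over 153, 99, 118 and 68 Lgr5-positive cells. Thinning left out 198, 243, 181 and 640 shallower epithelial cells. At a mitochondrial limit of 10% in place of 20%, the difference in allogeneic 1 was 12.4 points. Enterocyte-like cells, nearly all of them Lgr5-zero, numbered 423, 481, 366 and 2010, beside 2485, 2177, 1517 and 4422 Lgr5-zero cells in all. Their part in the differences between Lgr5-positive and Lgr5-zero cells, here and gene by gene below, was not tested.

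**Figure D1:**
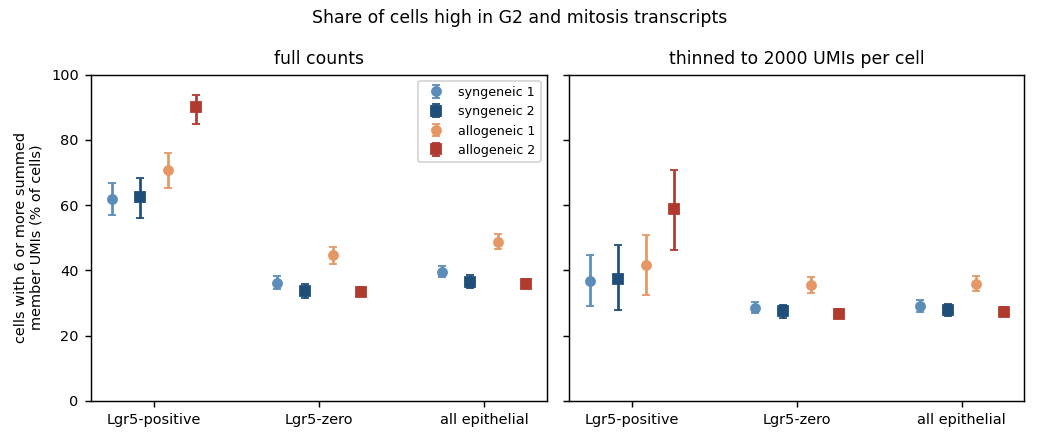
Share of cells with 6 or more summed UMIs of the 32 members (vertical axis, percent of cells) in Lgr5-positive, Lgr5-zero and all epithelial cells, from full counts (left) and after thinning to 2000 UMIs per cell (right); points are the 4 libraries and bars are 95% exact binomial intervals for counting error. Lgr5-positive cells of allogeneic 2 stand highest, at 90.0% of 190 cells and 58.8% after thinning.

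Between the groups, the share in Lgr5-positive cells was 62.2% ± 0.269 in syngeneic and 80.3% ± 13.7 in allogeneic libraries (mean ± SD, n = 2). Both allogeneic libraries lay above both syngeneic ones, a difference of 18.2 points. An exact two-sided permutation test over libraries gave p = 0.333, which is the smallest p that 2 against 2 libraries allow. After thinning, the values were 36.6%, 37.4%, 41.5% and 58.8%, a difference of 13.2 points with the same p. In Lgr5-zero cells the share was 34.9% ± 1.83 and 39.0% ± 7.84, and the groups overlapped (exact permutation p = 1). At a mitochondrial limit of 10% it was 39.7%, 38.3%, 58.7% and 39.6%, a difference of 10.2 points in place of 4.10, again with overlap, and in all epithelial cells 9.53 points in place of 4.22. Without allogeneic 2, the difference in Lgr5-positive cells was 8.49 points; without allogeneic 1, it was 27.8 points in Lgr5-positive and -1.45 points in Lgr5-zero cells.

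The Lgr5-positive cells were not the same kinds of cell in the 4 libraries. Stem-like clusters held 51.6%, 43.7%, 30.7% and 6.32% of them, Paneth-like clusters 28.7%, 36.0%, 21.8% and 18.4%, the cycling progenitor-like cells 0.532%, 0.81%, 5.12% and 38.4%, and clusters left without a name 5.05%, 6.48%, 28.3% and 27.4%. In the allogeneic libraries nearly all of the last (81 of 83 and 51 of 52) were in 1 cluster of 632 cells whose leading genes included Egr1, Fosb, Jun and Fos, immediate-early transcription factors, and the heat shock gene Hspa1a, named after their values were seen. It held 2.93%, 2.43%, 27.6% and 26.8% of the Lgr5-positive cells of the 4 libraries, 11 and 6 cells in the syngeneic ones. The share with 6 or more summed UMIs was 81.8%, 50%, 69.1% and 98.0% in these cells and 61.4%, 62.7%, 71.2% and 87.05% in the other Lgr5-positive cells. All 8 Paneth markers and all 10 stem markers were detected in Lgr5-positive cells. The Paneth markers summed to 120684 and 145915 CPM in the syngeneic and 54719 and 39177 CPM in the allogeneic libraries, and the stem markers to 4552 and 4038 against 4106 and 1826 CPM. Of the T or NK list, 9 of 10 markers had a UMI (Trac had none), at sums of 0.482 to 16.2 CPM in the syngeneic and 1.54 to 4.58 CPM in the allogeneic libraries. Without the Paneth-like clusters, the share in Lgr5-positive cells was 64.9%, 70.9%, 75.1% and 93.5%. Beyond that, the part of these cell classes in the difference between groups was not tested.

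By level, the members together took 2952 and 2660 CPM of the Lgr5-positive cells in the syngeneic and 3692 and 3955 CPM in the allogeneic libraries, so the groups did not overlap. The log2 ratio of the group means was 0.45, with the smallest p the design allows (exact permutation, p = 0.333). It fell to 0.15 without the Paneth-like clusters (3859, 3784, 4260 and 4212 CPM), and was 0.75 when counted as UMIs per cell. In Lgr5-zero cells the sums were 2300, 2157, 2976 and 2138 CPM, a log2 ratio of 0.20 with overlapping groups; without allogeneic 1 it was -0.06. A change in the share of dividing cells and a change in RNA per dividing cell cannot be told apart in such sums. Set against the 36 listed S-phase genes, the members' sum in Lgr5-positive cells was 1.51, 1.34, 1.87 and 1.51 times theirs, and in Lgr5-zero cells 1.7, 1.78, 1.63 and 1.56 times.

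Gene by gene, members were compared between Lgr5-positive and Lgr5-zero cells over the 8 sums of 4 libraries, with library as a block (edgeR's quasi-likelihood test, Benjamini-Hochberg adjustment over all genes tested, threshold 0.05). Of the 32 members, 22 were higher in Lgr5-positive cells and 0 lower. Over all 11560 genes tested, 44.6% were called, 20% higher and 24.6% lower. The median log2 fold change of the members was 0.35, against 0.03 over all genes tested. With thinned cells, 5 of 32 members were called, all higher: Top2a, Tpx2, Smc2, Smc4 and Ube2c. Of all 9866 genes tested with thinned cells, 1894 (19.2%) were called in either direction. Counted in either direction, the members were thus called no more often than genes as a whole at that depth. The share of all genes called higher with thinned cells is not given here, so the calls cannot be compared by direction. The median over the members was 0.38 with thinned cells.

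The genes that handle chromosomes were higher in Lgr5-positive cells in 4 of 4 cases. Top2a, the topoisomerase that untangles sister chromatids, had 348, 317, 411 and 391 CPM in Lgr5-positive and 197, 186, 264 and 156 CPM in Lgr5-zero cells. Every Lgr5-positive value exceeded every Lgr5-zero value, and the log2 fold change was 0.81 ± 0.087 (SE, adjusted p = 8.39e-06). Mki67, which coats mitotic chromosomes and is the usual marker of proliferation, had 171, 152, 208 and 138 CPM against 112, 99.1, 174 and 62.6 CPM. It was higher in Lgr5-positive cells of each library, by 0.57 ± 0.10 on the log2 scale (adjusted p = 0.000582), and 0.45 with thinned cells, where it was not called. The condensin subunits Smc2 and Smc4, which compact chromosomes, were higher by 0.55 and 0.46, and by 0.57 and 0.49 with thinned cells, where both were called. Smc2 had 119.97, 134, 138 and 192 CPM against 89.7, 86.7, 116 and 82.0 CPM, and Smc4 had 152, 132, 169 and 146 against 113, 96.2, 136 and 75.4 CPM, higher in 4 of 4 libraries in both cases.

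Spindle genes followed in 8 of 9 cases. Kif2c, a kinesin that takes microtubules apart at centromeres, had 20.05, 17.8, 24.5 and 18.5 CPM in Lgr5-positive and 8.69, 9.35, 16.8 and 10.2 CPM in Lgr5-zero cells, ratios of 2.31, 1.91, 1.46 and 1.82. Kif11, the motor that pushes the spindle poles apart, had 63.6, 51.1, 74.5 and 65.3 against 37.1, 29.2, 58.6 and 29.2 CPM, ratios of 1.72, 1.75, 1.27 and 2.23. For Tpx2, which activates Aurora A on spindle microtubules, the levels were 62.4, 52.1, 86.0 and 93.1 against 42.1, 41.8, 67.2 and 40.8 CPM, ratios of 1.48, 1.25, 1.28 and 2.28. Nusap1, which binds and bundles microtubules, had 77.97, 61.7, 93.2 and 79.2 against 51.7, 47.4, 67.5 and 39.5 CPM, ratios of 1.51, 1.3, 1.38 and 2.01. Each of these 4 genes was higher in 4 of 4 libraries, and allogeneic 2 gave the highest ratio for all but Kif2c. Kif23, Hmmr, Tacc3 and Racgap1 passed the test too, with log2 fold changes of 0.42, 0.31, 0.35 and 0.41, while Kif20a did not (0.28, adjusted p = 0.0888).

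Of the kinases, 4 of 6 were higher. Bub1b, which with Bub3 and Cdc20 forms the checkpoint complex that restrains the APC/C, had 28.3, 28.4, 37.3 and 27.8 CPM against 18.2, 14.1, 25.5 and 11.5 CPM, ratios of 1.56, 2.01, 1.46 and 2.41. Aurkb, the kinase that corrects faulty attachments of chromosomes, had 44.6, 35.7, 58.5 and 58.6 against 33.6, 28.3, 39.98 and 26.8 CPM, and Pbk, a mitotic kinase, 76.7, 71.3, 78.8 and 86.4 against 58.9, 57.3, 58.1 and 46.2 CPM. All 3 were higher in 4 of 4 libraries. Plk1, the Polo-like kinase of mitotic entry, had 35.6, 38.1, 40.2 and 46.8 CPM in Lgr5-positive cells against 29.95, 26.9, 35.7 and 28.7 CPM. Its log2 fold change of 0.32 ± 0.11 passed at an adjusted p of 0.0313 but not with DESeq2, with thinned cells, or without syngeneic 1, syngeneic 2 or allogeneic 2 (adjusted p 0.0687 to 0.852). Aurka, the centrosomal Aurora kinase, had 30.9, 28.4, 32.4 and 42.7 against 24.7, 23.8, 32.1 and 30.8 CPM; its difference of 0.18 ± 0.11 did not pass (adjusted p = 0.207).

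Among centromere genes, 3 of 5 were higher. Cenpf, a kinetochore protein, had 142, 114, 200.1 and 155 CPM against 85.8, 85.8, 131 and 65.2 CPM, and a log2 fold change of 0.67 ± 0.098. Cenpe, the kinetochore motor, and Cdca8, which belongs to the same complex as Birc5 and Aurkb, were higher by 0.46 and 0.31. Birc5 (survivin), another subunit of that chromosomal passenger complex, had 171, 159, 199 and 282 CPM in Lgr5-positive and 180, 171, 194 and 197 CPM in Lgr5-zero cells. The values overlapped, with Lgr5-positive cells higher in 2 of 4 libraries and a log2 fold change of 0.02 ± 0.086 (adjusted p = 0.878). Cenpa, the histone variant of centromeres, had 128, 91.6, 196 and 201 against 120, 112, 150 and 127 CPM and did not pass (0.15 ± 0.11, adjusted p = 0.273).

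Of the cyclins and Cdk1, 1 of 4 was higher, and of the genes of the checkpoint and the APC/C, 2 of 4. Ccnb1 had 43.9, 52.1, 87.9 and 72.5 CPM in Lgr5-positive and 44.1, 45.4, 65.1 and 44.7 CPM in Lgr5-zero cells, a log2 difference of 0.26 ± 0.11 that did not pass (adjusted p = 0.0628). Ccnb2 had 68.7, 56.9, 108 and 89.5 against 70.6, 65.4, 86.3 and 62.9 CPM, lower in the syngeneic and higher in the allogeneic libraries (0.08 ± 0.10, adjusted p = 0.545). Cdc20, the co-activator through which the APC/C takes up cyclin B, showed the same split, with 68.7, 63.6, 109 and 98.8 against 70.8, 70.6, 95.02 and 61.0 CPM (0.10 ± 0.10, adjusted p = 0.452). Of this set Cdk1, Bub3 and Ube2c, the enzyme that hands ubiquitin to APC/C substrates, were higher, by 0.31, 0.36 and 0.33. Bub3 had 109, 105, 102 and 140 against 89.3, 81.4, 91.0 and 73.5 CPM, with no overlap. Cdca3 and Ccna2 gave 0.04 and 0.11 and did not pass.

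**Figure D2:**
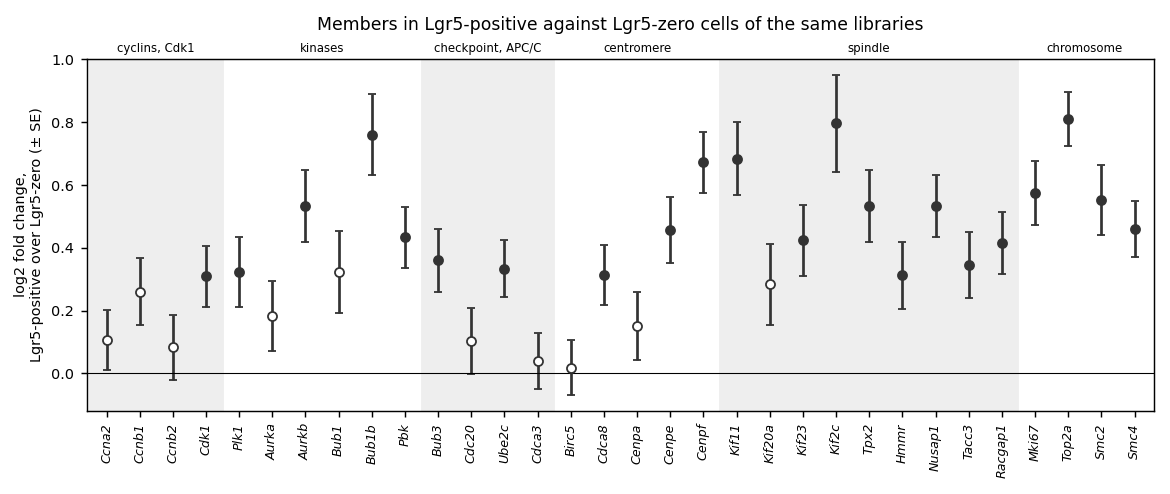
Log2 fold change of each member in Lgr5-positive over Lgr5-zero cells of the same libraries (vertical axis; points with bars of 1 SE from edgeR), ordered by role; filled points passed an adjusted p of 0.05 and open points did not. The 22 filled points lie between 0.31 and 0.81, and Birc5 is the lowest of the 32 at 0.02.

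Other genes of the pathway were counted in the same fit, from lists. Of 68 further mitosis genes tested, 44 were higher and 0 lower (median log2 fold change 0.47), led by citron kinase Cit (0.97), Prc1, Ncapd2 and Ckap2 (0.67, 0.77 and 0.76). Of 36 S-phase genes, 29 were higher and 0 lower (median 0.50), with the replicative helicase subunits Mcm7, Mcm2 and Mcm3 (0.68, 0.70 and 0.74) and Atad2 (0.75) at the lowest p. APC/C subunits were higher in 7 of 14 cases and lower in 0, led by Anapc5 (0.45) and Cdc23 (0.57). Of 15 brakes on the cell cycle, 3 were higher and 6 lower, where 20% of all genes tested were higher and 24.6% lower. At the lowest p, Wee1, the kinase that holds Cdk1 inactive, was higher (1.21), and the CDK inhibitors Cdkn2b (-4.16) and Cdkn1a (-2.98) and the stress gene Gadd45a (-1.26) were lower. Of 23 regulators of these genes, 4 were higher, among them Myc (0.70) and Tfdp2 (0.40), and 2 lower, Rb1 (-1.13) and E2f2 (-0.71), which is no more in either direction than the share over all genes.

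The comparison of allogeneic with syngeneic libraries called no member in any of the 3 sets of cells. In Lgr5-positive cells 0 of 32 passed, where 1.16% of 9668 genes did (0.755% higher and 0.403% lower). In Lgr5-zero cells 0 of 32 passed (background 0.306% of 11757 genes, 0.221% higher and 0.0851% lower), and in all epithelial cells 0 of 32 (0.158% of 12040 genes, 0.141% higher and 0.0166% lower). At an unadjusted p under 0.05 there were 3, 2 and 1 members, and DESeq2 called 0 in each set. The signs were mostly positive, 30 of 32 in each set, with median log2 fold changes of 0.26, 0.23 and 0.25 against 0.00, 0.02 and 0.03 over all genes tested. The members marked the same cells of the same pools, so their signs are not separate observations. With thinned cells the medians were 0.12 in Lgr5-positive cells, over the 24 members tested, and 0.13 in Lgr5-zero cells. In those Lgr5-positive cells 15 of 24 signs were positive. At a mean of at least 20 CPM, over 28 members tested, the medians were 0.15 in Lgr5-zero and 0.16 in all epithelial cells. Without allogeneic 2 the median was 0.165 in Lgr5-positive cells, and without allogeneic 1 it was 0.14 in Lgr5-zero cells. The smallest adjusted p of a member was 0.404, for Tacc3 in Lgr5-positive cells.

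Both allogeneic libraries lay above both syngeneic ones for 25 of 32 members in Lgr5-positive cells and below for 0, where 28.7% of all genes lay above and 11.2% below. That count depends on the scaling. Plain CPM put the median of all genes itself 0.14 above 0 on the log2 scale in these cells. With TMM scaling, which brings it to 0.00, 16 members lay above and 1 below, against a background of 17.7% above and 20.6% below. In Lgr5-zero cells the count was 8 of 32 above and 0 below by plain CPM (17.8% and 19% of all genes), and 17 above and 1 below by TMM (20.8% and 21.5%). In all epithelial cells it was 8 and 0 (18.2% and 17.8%), and 18 and 1 (20.4% and 20.7%).

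In Lgr5-positive cells, the members at higher levels in both allogeneic libraries included the mitotic cyclins. Ccnb1 had 43.9 and 52.1 CPM in the syngeneic and 87.9 and 72.5 CPM in the allogeneic libraries, with a log2 fold change of 0.60 ± 0.24 (adjusted p = 0.488), and 0.03 with thinned cells. Ccnb2 had 68.7 and 56.9 against 108 and 89.5 CPM (0.51 ± 0.24, adjusted p = 0.61), and 0.98 with thinned cells. Cdc20 had 68.7 and 63.6 against 109 and 98.8 CPM (0.51 ± 0.24, adjusted p = 0.61), and 0.78 with thinned cells. In none of these 3 did the groups overlap, and none passed.

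Cenpa had 128 and 91.6 against 196 and 201 CPM, a log2 fold change of 0.72 ± 0.29 (adjusted p = 0.484), and 0.27 with thinned cells. Tacc3, which stabilises spindle microtubules, had 42.3 and 34.7 against 67.35 and 66.3 CPM (0.65 ± 0.23, adjusted p = 0.404). Birc5 had 171 and 159 against 199 and 282 CPM (0.42 ± 0.33, adjusted p = 0.832). With allogeneic 1 left out, Birc5 was called by edgeR at a log2 value of 0.73 (adjusted p = 5.395e-06); with allogeneic 2 left out the value was 0.06. Top2a had 348 and 317 against 411 and 391 CPM, a fitted difference of 0.13 ± 0.30 (adjusted p = 0.961), and 0.47 with thinned cells. Plk1 and Aurka, at 35.6 and 38.1 against 40.2 and 46.8 CPM and at 30.9 and 28.4 against 32.4 and 42.7 CPM, had fitted values of 0.10 ± 0.25 and 0.19 ± 0.27. Mki67 at 171 and 152 against 208 and 138 CPM and Bub3 at 109 and 105 against 102 and 140 CPM overlapped between groups (-0.05 ± 0.29 and 0.06 ± 0.29).

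**Figure D3:**
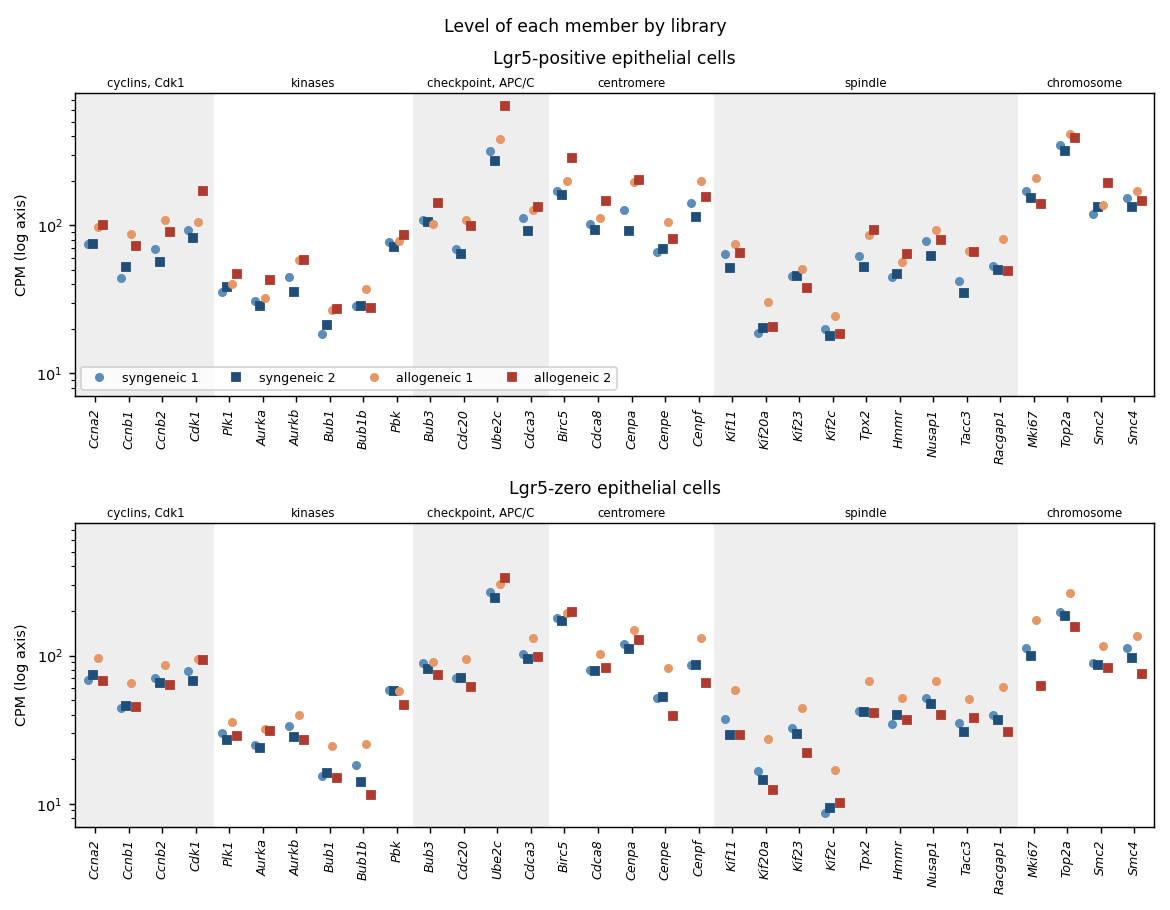
Level of each of the 32 members (vertical axis, CPM, log axis) in the 4 libraries, in Lgr5-positive (top) and Lgr5-zero (bottom) epithelial cells, ordered by role. In the top panel both allogeneic libraries lie above both syngeneic ones for 25 members by this scaling, and in the bottom panel for 8.

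**Figure D4:**
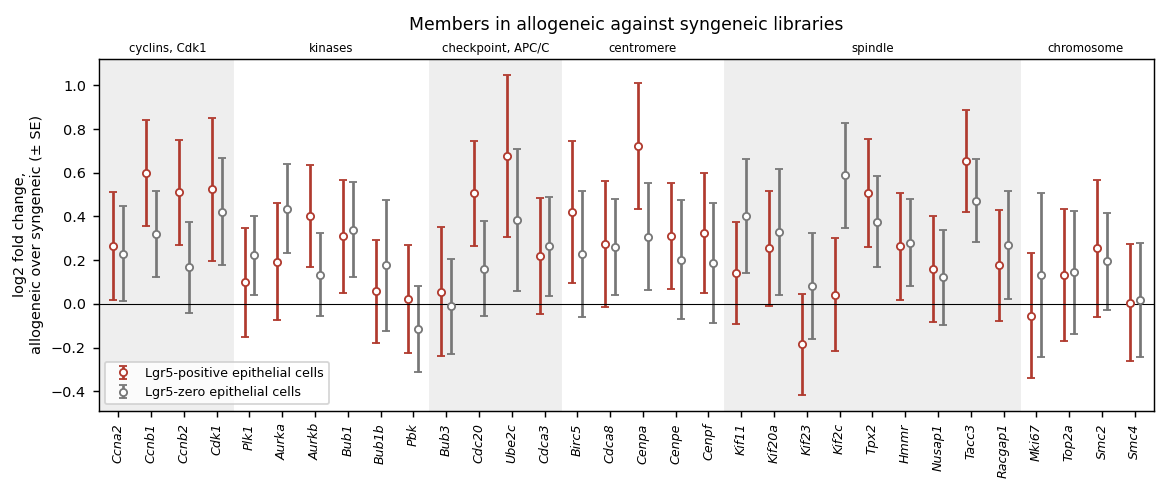
Log2 fold change of each member in allogeneic over syngeneic libraries (vertical axis; points with bars of 1 SE from edgeR, after TMM scaling) in Lgr5-positive and Lgr5-zero cells; no point passed an adjusted p of 0.05. In each set of cells 30 of 32 points lie above 0.

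The count of calls changed when an allogeneic library was left out. Without allogeneic 1, 11 members were called in Lgr5-positive cells, and without allogeneic 2, 6; 5 were in both sets: Ccnb1, Ccnb2, Cdc20, Cenpa and Tacc3. In these fits the lone allogeneic library is assumed to vary as the syngeneic pair does, and 2193 and 1108 genes were then called in all (22.8% and 10.6%). In Lgr5-zero cells the same fits called 8 and 13 members, of which 2 were shared, Tacc3 and Mki67; 43.1% and 22.1% of all genes tested were then called, so that 8 of 32 lay below and 13 of 32 above the share over all genes. Tacc3 was higher in both (0.46 and 0.47). Mki67 was lower by -0.50 with allogeneic 2 alone and higher by 0.57 with allogeneic 1 alone.

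The allogeneic libraries differed from each other in most members. In Lgr5-zero cells the level in allogeneic 2 divided by that in allogeneic 1 had a median of 0.679 over the 32 members, ranging from 0.36 for Mki67 (174 and 62.6 CPM) to 1.09 for Ube2c (305 and 333 CPM). It was below 1 for 30 members. The same ratio in the syngeneic pair had a median of 0.93 and ran from 0.775 to 1.13. The SD of the log2 ratios was 0.381 in the allogeneic and 0.125 in the syngeneic pair. The members furthest below 1 beside Mki67 were Bub1b (0.452), Kif20a (0.453) and Cenpe (0.472), while Cdk1 (0.981), Aurka (0.959) and Birc5 (1.014) were nearly level. In Lgr5-positive cells the allogeneic ratio had a median of 0.994 and ran from 0.614 (Racgap1) to 1.66 (Ube2c, 382 and 634 CPM). These are values of single pools, with no test.

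**Figure D5:**
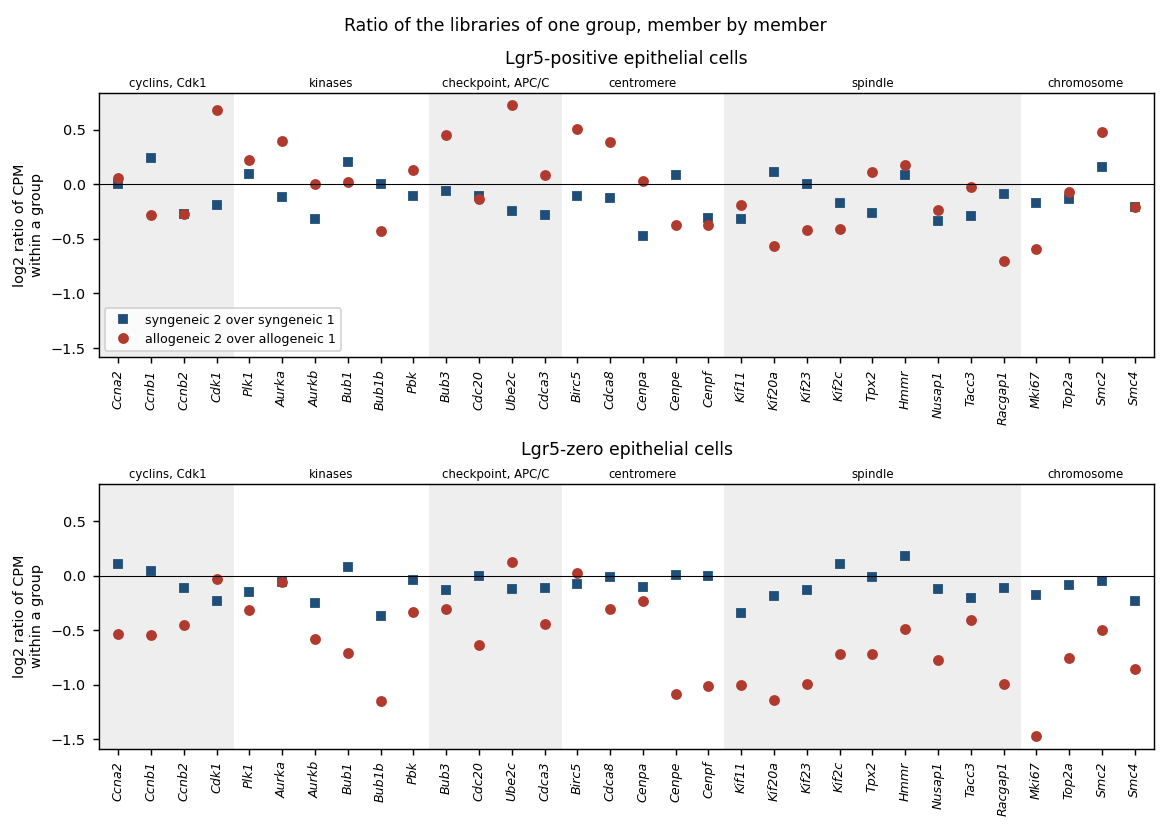
Log2 ratio of the level in library 2 over library 1 of the same group (vertical axis) for each member, in Lgr5-positive (top) and Lgr5-zero (bottom) cells; squares are the syngeneic pair and circles the allogeneic pair. In the bottom panel 30 of 32 circles lie below 0, and Mki67 is the lowest.

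Whether the allogeneic difference itself differed between Lgr5-positive and Lgr5-zero cells was tested as an interaction over the 8 sums. It called 0 of 32 members (edgeR; 1 at an unadjusted p under 0.05, and 0 by DESeq2), where 0.026% of 11560 genes were called. The median over the members was 0.06, and -0.12 with thinned cells. Leaving out 1 library at a time, the median over the members ranged from -0.151 to 0.212. The same difference in the share of high cells was not tested.

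No gene of the other pathway lists passed between allogeneic and syngeneic Lgr5-positive cells: 0 of 67 further mitosis genes, 0 of 36 S-phase genes, 0 of 14 APC/C subunits, 0 of 13 brakes and 0 of 23 regulators (edgeR; 3, 3, 1, 1 and 4 at an unadjusted p under 0.05; DESeq2 0 in each). Their median log2 fold changes were 0.19, 0.11, 0.10, -0.05 and 0.06. In Lgr5-zero cells the medians were 0.28 for further mitosis genes and 0.33 for S-phase genes, with 0 called by edgeR (6 and 6 at an unadjusted p under 0.05) and 0 and 1 by DESeq2.

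Within the cells that had 6 or more summed member UMIs, genes outside the list were compared between the groups: 1.13% of 11304 genes were called, 88 higher (0.778%) and 40 lower (0.354%) in allogeneic libraries. Further mitosis genes gave 0 of 68 (2 at an unadjusted p under 0.05; 0 by DESeq2) with a median log2 fold change of 0.05, and S-phase genes 0 of 36 (4; 1 by DESeq2) with 0.25. The members' sum chose these cells, so both lists were read among cells already rich in division transcripts. Their values here cannot show whether more cells divided in a group. Of 71 tested interferon-response and antimicrobial genes that were left out of the clustering, 34 were higher and 1 lower. These cells were deeper than the rest, at median UMIs of 6620, 6461, 9209 and 6728 against 3716, 3608, 4010 and 3256. Their median summed stem marker level was 20.2, 15.9, 17.6 and 5.04 UMIs per 10000.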

How the data were processed

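UMI counts per gene and cell were used as deposited by the authors, from a 10x Genomics 3′ assay; the submitters' processing notes name Cell Ranger 2.1.1 and mm10, while the matrix headers give software version 3.1.0. Barcodes with at least 500 genes and 1000 UMIs and no more than 20% mitochondrial UMIs were retained (12285 of 16565), and 89 doublets called by Scrublet (0.72%) were removed. Cells were clustered with scanpy 1.11.5 (2000 variable genes, 30 components, 15 neighbours, Leiden resolution 1, 22 clusters) and clusters named from a marker list. Sums of counts per library and set of cells passed filterByExpr, were TMM-scaled and went through the robust quasi-likelihood test of edgeR 4.0.16, adjusted over all genes; DESeq2 1.42.0 was an alternative. Shares have exact binomial intervals and exact permutation tests over libraries. The tests were tried on simulated data with known changes and the same spread in both groups. Among the members, ratios within the allogeneic pair were more spread than those within the syngeneic pair. The trial therefore does not show how well the tests perform on these libraries. Alternatives were other size factors, filters, limits and cell sets, thinned cells, leaving out each library and, added after the data were seen, leaving out Paneth-like clusters.

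The members and the gene lists were chosen with earlier results of these data known. Full values are given for 10 members set by rule (Mki67, Top2a, Ccnb1, Ccnb2, Plk1, Aurka, Cdc20, Birc5, Cenpa and Bub3) and for the called members of a comparison, at most 12 by lowest p; each other list has at most 4 named genes. Values printed for further members (Tacc3, Ube2c, Racgap1 and those in the ratios within a group) were picked after they were seen. Libraries are separate pools of mice, so p-values between allogeneic and syngeneic libraries are set against the spread between pools. In the fits with library as a block, p-values are set against how far the difference within a library varied from library to library.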

Additional observations from a re-analysis of the deposited data

Results flagged for a closer look

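The allogeneic difference in Lgr5-positive cells differed from that in Lgr5-zero cells, by the interaction term of the edgeR fit, for 3 genes of 11560. None is a G2 or mitosis gene, and they are named after their values were seen. Fabp6, an ileal bile acid binding protein, had 51.9, 91.1, 45.1 and 306 CPM in Lgr5-positive and 11664, 13158, 1603 and 8042 CPM in Lgr5-zero cells (adjusted p = 0.0005007). For Sst, the hormone somatostatin, the UMIs were 0, 1, 233 and 0 in Lgr5-positive and 758, 1962, 0 and 1 in Lgr5-zero cells (adjusted p = 1.331e-05). Within the allogeneic group, all Lgr5-positive UMIs of Sst came from allogeneic 1, and its other counts were 0 or 1. The Sst term thus rests on 1 pool and on counts at or near 0, and it does not show a difference shared by both allogeneic libraries. Ubd, an interferon-induced ubiquitin-like protein, had 3.18, 1.45, 195 and 708 CPM in Lgr5-positive and 26.0, 32.7, 263 and 656 CPM in Lgr5-zero cells (adjusted p = 0.004499).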

How the results depend on the processing

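No paired analysis was possible because the labels give the allogeneic and syngeneic libraries no shared replicate numbers. There were 2 pools a group and 190 to 376 Lgr5-positive cells a library, which limits the precision of every comparison between groups. A fit without 1 library assumes that the lone library of a group varies like the other pair.

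Between allogeneic and syngeneic libraries, no alternative that kept all 4 libraries called a member. The number of genes called did move. In all epithelial cells it went from 19 to 334 with DESeq2, 546 with no filter on low counts, and 0 both at a mean of at least 20 CPM and at a mitochondrial limit of 10%. In Lgr5-positive cells it went from 112 to 330 with no filter, 67 at 20 CPM, 71 without Paneth-like clusters and 35 with thinned cells. In Lgr5-zero cells it went from 36 to 361 with DESeq2, 820 with no filter, 8 at 20 CPM, 13 at the 10% limit and 22 with thinned cells. In cells with 6 or more summed UMIs, 128 became 329 with DESeq2. Between Lgr5-positive and Lgr5-zero cells, thinning left 1894 genes and 5 members called. The interaction called 13 genes with thinned cells and 17 without Paneth-like clusters, in place of 3, and its median over the members turned to -0.125 with thinned cells.

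Signs turned for some of the members followed by name through the alternatives. In Lgr5-positive cells, allogeneic over syngeneic, they were Bub3 (-0.025 without Paneth-like clusters, -0.435 thinned) and Mki67 (0.051 thinned). In Lgr5-positive over Lgr5-zero cells, thinned, they were Ccnb2 (-0.07) and Birc5 (-0.031). Other members turned too: allogeneic over syngeneic in Lgr5-positive cells, 15 of 24 signs were positive when thinned, against 30 of 32 with full counts. The cause was not tested.

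Leaving out 1 library at a time, genes called ranged from 98 to 5405 and members from 0 to 12 in all epithelial cells, from 93 to 2193 and 0 to 11 in Lgr5-positive cells, from 115 to 5254 and 0 to 13 in Lgr5-zero cells, and from 137 to 4244 genes in cells with 6 or more UMIs. The interaction ranged from 10 to 647 genes, 0 to 2 members and a median of -0.151 to 0.212. Log2 fold changes in Lgr5-positive cells ranged from -0.068 to 0.313 for Plk1, -0.082 to 0.48 for Aurka, -0.267 to 0.352 for Bub3, -0.27 to 0.157 for Mki67, 0.062 to 0.731 for Birc5 and 0.17 to 1.064 for Ube2c, and for Mki67 in Lgr5-zero cells from -0.502 to 0.566. Birc5 in Lgr5-positive over Lgr5-zero cells ranged from -0.056 to 0.066. The difference in the share of cells ranged from -1.452 to 9.641 points in Lgr5-zero and -2.278 to 10.708 points in all epithelial cells, and the log2 ratio of the summed CPM from -0.06 to 0.417 and -0.029 to 0.429.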
